A study of Mus musculus with 6 samples.

Results

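Transcripts of 38 genes of the citric acid cycle, of mitochondrial fatty acid oxidation and of the steps that bring fatty acids to it were followed in mouse muscle cells that received an siRNA against SENP7. The 38 genes were taken by name from the deposited table of 55401 genes, from a list that covers the citric acid cycle (14 genes), fatty acid uptake and activation (3), the carnitine shuttle (4), the acyl-CoA dehydrogenases (4), the later steps of the beta-oxidation spiral (5), auxiliary enzymes for unsaturated fatty acids (3), the electron transfer flavoprotein route (3) and the uncoupling proteins (2). The rule goes by gene name alone, but the list was drawn up with earlier results of these data known. All 38 were found, and 37 of them were among the 14668 genes with enough signal to be tested; Cpt1b was not.

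The cells were myotubes of C2C12, a line of mouse myoblasts that fuse into multinucleated muscle fibres when serum is withdrawn. The treated group was 3 cultures given SENP7 siRNA, and its counterpart was 3 cultures given a Gl2 siRNA, which is directed against firefly luciferase and serves as a control. Both groups were kept in DMEM with 2% horse serum and antibiotics and received 100 pmol of siRNA over 3 days, so exposure to an siRNA was common to both. Polyadenylated RNA was sequenced, and the series calls the 3 cultures of a group biological replicates. C2C12 is a cultured line rather than muscle tissue, knockdown by siRNA is partial, and the labels used here do not give how many siRNA sequences were used. SENP7 is a protease that removes SUMO, a small protein tag, from chains on other proteins.

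The citric acid cycle oxidizes acetyl-CoA to carbon dioxide in the mitochondrial matrix and passes the electrons to the respiratory chain. Fatty acids enter that route after uptake into the cell, activation to acyl-CoA and passage into mitochondria as carnitine esters, where each turn of beta-oxidation shortens the chain by an acetyl-CoA unit. Skeletal muscle relies on both routes for sustained work, and oxidative fibres hold more of their enzymes than glycolytic fibres. All values below are transcript levels, and enzyme activity, flux and protein were not measured.

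Levels are normalized counts, that is, the read count of a gene divided by a size factor for its library. Values of a group are listed for replicates 1, 2 and 3 in that order. A gene is said to have risen or fallen where limma, fitted to log2(normalized count + 1) over all 14668 genes, gave a Benjamini-Hochberg adjusted p below 0.05 (two-sided), and log2 fold changes are SENP7 siRNA over control siRNA with their standard error. RNA came from whole cultures, so fewer cells of a kind and less RNA per cell cannot be told apart in any value here.

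Libraries held between 25223218 and 30865945 reads assigned to genes. Senp7 itself, the siRNA target, had normalized counts of 275, 279.2 and 346.7 in SENP7 siRNA cultures, against 556.4, 616.4 and 648.8 in control cultures (log2 fold change -1.02 ± 0.11, adjusted p = 0.000428, limma). Control replicate 3 stood apart from the other controls on the first principal component, which held 64.4% of the variance, with a score of 19.1 against 36.7 and 33.3 for control replicates 1 and 2 and -27.7 to -32.5 for the SENP7 siRNA libraries. Among the tested members it was the lowest control in 23 of 37 and the highest in 7, and its median log2 distance from the mean of the other controls was -0.10, against -0.01 over all tested genes. SENP7 siRNA replicates 1 and 2 were more alike than any other pair of a group. Their chi-square per gene was 1.71 over 14656 genes with at least 20 reads in the pair, against 7.43 to 37.3 in the other pairs. Read sampling alone gives about 1, so they differed by more than that. The value cannot tell separate cultures from separate preparations of 1 culture, and their independence was not tested. They were kept as 2 replicates because the series calls them biological replicates. The 8 myotube markers were abundant, summing to 609847 to 696924 normalized counts in SENP7 siRNA libraries and 559594 to 581229 in control libraries. Of these 8, 2 rose and none fell, where 10.2% of all tested genes rose and 10.7% fell. The risers were the muscle creatine kinase Ckm (1.00 ± 0.14, adjusted p = 0.00149, limma) and myoglobin, Mb (0.56 ± 0.07, adjusted p = 0.000917). Myh3 (0.35), Tnnt3 (0.30), Myl1 (0.30) and Myog (0.28) did not pass (adjusted p 0.0635 to 0.0904, limma), although their groups did not overlap. Acta1 (0.16) and Des (-0.20) had overlapping groups and did not pass. The part of these markers in the results of the members was not tested.

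Across the whole group more transcripts were higher than lower after SENP7 knockdown, and most differences were small. Among the 37 tested members there were 14 that rose, 6 that fell and 17 without a call. Called members therefore made up 54.1% of those tested, where 20.9% of all 14668 genes were called. By direction, 37.8% rose against 10.2% of all tested genes, and 16.2% fell against 10.7%. The SENP7 siRNA and control values did not overlap in 25 members (67.6%), as in 39.6% of all tested genes. Tested members averaged at least 215.7 normalized counts in either group, apart from Ucp3 (67.32 with SENP7 siRNA and 49.14 with control siRNA). All tested genes include those with only 10 in 3 libraries, where a small difference is harder to call. The shares given here and for the lists below were not matched for level, and the part of abundance in them was not tested. The median log2 fold change of the members was 0.18, with a range from -0.47 for Acadl to 1.01 for Acsl1, and 29 lay above 0, counting Idh3g and Cpt2, whose signs turned without single libraries; over all tested genes the median was -0.003 and 49.5% lay above 0. Of all normalized counts, the 38 members took up 0.442%, 0.447% and 0.438% in SENP7 siRNA libraries and 0.404%, 0.4% and 0.394% in control libraries.

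These counts depended on single libraries. Without control replicate 3, 16 members rose and 6 fell, among 4702 genes called in all. Without SENP7 siRNA replicate 1, 5 rose and 3 fell among 1660 genes. Leaving out SENP7 siRNA replicate 2 or control replicate 2 gave 5 that rose and 2 that fell in either case, among 1619 and 1633 genes called. A core of 7 members kept its call in all 15 alternative settings other than the stricter threshold, made up of Idh3b, Sucla2, Acsl1, Echs1 and Acaa2, which rose, and Cd36 and Acadl, which fell. No called member changed direction in any setting.

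**Figure D1:**
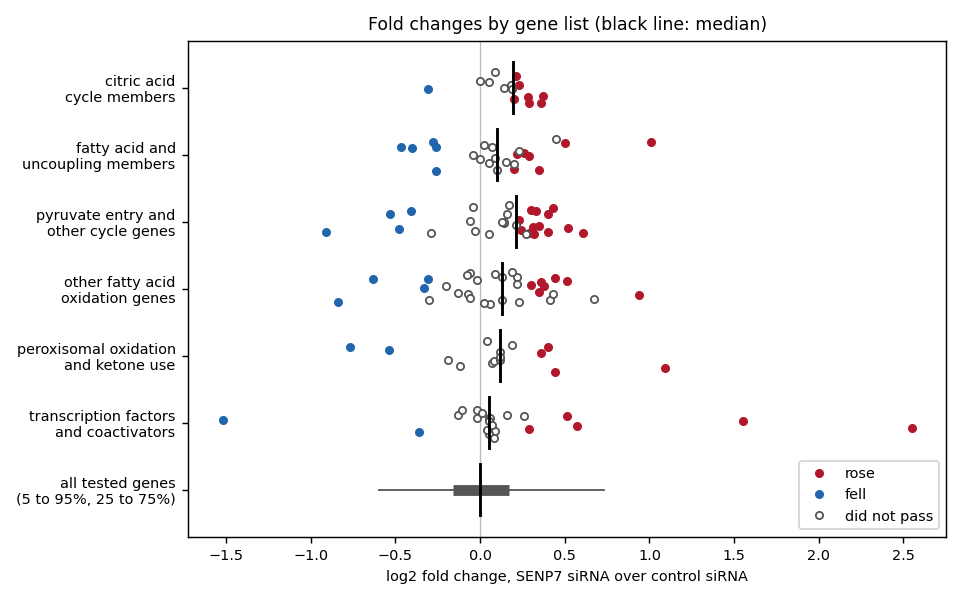
Log2 fold changes of SENP7 siRNA over control siRNA (x axis) for the tested genes of each list (rows), with 1 point per gene coloured by its call and a black line at the list's median; the bottom row gives the median, the 25th to 75th (thick) and 5th to 95th (thin) percentiles of all 14668 tested genes. Of the 14 cycle members 13 lie above 0, Idh3g by less than 0.01, while the other members spread from -0.47 to 1.01.

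Transcripts of the citric acid cycle that passed the test were higher in the SENP7 siRNA cultures, with the exception of Suclg1. Its 14 members comprised 7 that rose, 1 that fell and 6 without a call, and the median log2 fold change was 0.20. The risers made up 50% of these members, beside 10.2% of all tested genes, and the single fall 7.14%, below the 10.7% of all tested genes. Their summed share of all normalized counts was 0.263 ± 0.00353% with SENP7 siRNA and 0.228 ± 0.00265% with control siRNA (SD, n = 3 each). The 24 other members together took up 0.18 ± 0.00076% and 0.171 ± 0.00285% (SENP7 siRNA and control siRNA, SD, n = 3 each). Of the 23 of them that were tested, 7 rose (30.4%) and 5 fell (21.7%), beside 10.2% and 10.7% of all tested genes. Their median log2 fold change was 0.10.

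At the entry of the cycle, citrate synthase (Cs), which joins acetyl-CoA to oxaloacetate, had 11819, 11635 and 10726 normalized counts with SENP7 siRNA and 10232, 11222 and 9549 with control siRNA. The groups overlapped, and the log2 fold change of 0.14 ± 0.08 did not pass the test (adjusted p = 0.235, limma; 95% interval -0.03 to 0.32). Idh2, the NADP-dependent isocitrate dehydrogenase of mitochondria, had 3004, 3072 and 2890 normalized counts with SENP7 siRNA, against 2487, 2231 and 2632 with control siRNA, and rose by 0.29 ± 0.07 (adjusted p = 0.0198). Every SENP7 siRNA culture exceeded every control culture for Idh2.

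The NAD-dependent isocitrate dehydrogenase is built from a catalytic alpha subunit (Idh3a) and from beta and gamma subunits (Idh3b, Idh3g), and these did not move equally. Idh3b (chromosome 2, 130279309 to 130284547, minus strand, GRCm38) had 3688, 3734 and 3640 normalized counts with SENP7 siRNA and 2876, 2821 and 2921 with control siRNA, and rose by 0.36 ± 0.05 (adjusted p = 0.00179, limma), a call that held in each setting at the 0.05 threshold. Idh3a had 3408, 3301 and 3161 with SENP7 siRNA and 2786, 2884 and 2838 with control siRNA (0.21 ± 0.05, adjusted p = 0.0249). Both transcripts were higher in all 3 SENP7 siRNA cultures than in any control culture. Idh3g, by contrast, averaged 3433 ± 47 with SENP7 siRNA and 3431 ± 261 with control siRNA (SD, n = 3 each), and its log2 difference of 0.00 ± 0.07 did not pass (adjusted p = 0.976). The sign of that difference turned without SENP7 siRNA replicate 3 (-0.01) or control replicate 3 (-0.06).

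The window around the Idh3b start site is printed because this call was kept in every setting at the 0.05 threshold and the window holds a match to an ETS family motif. It spans chr2:130284402-130284701 on the minus strand of GRCm38.p6 (RefSeq), from 250 bases before the annotated start to 50 bases after it. The capitals mark the match, CCGGAAG read on the opposite strand, whose first base lies 5 bases before the start. That RefSeq start, 130284451, lies within the gene span given above, and so does the match.
Idh3b: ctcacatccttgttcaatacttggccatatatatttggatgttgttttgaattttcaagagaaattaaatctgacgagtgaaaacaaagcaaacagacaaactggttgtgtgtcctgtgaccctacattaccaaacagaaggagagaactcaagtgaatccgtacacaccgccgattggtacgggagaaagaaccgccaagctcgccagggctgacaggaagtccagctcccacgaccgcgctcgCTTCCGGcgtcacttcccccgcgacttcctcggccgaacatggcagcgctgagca

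The 2-oxoglutarate dehydrogenase complex, which turns 2-oxoglutarate into succinyl-CoA, rose in the components named Dlst and Dld. Dlst, the succinyltransferase, had 8606, 8676 and 8348 normalized counts with SENP7 siRNA and 7524, 7698 and 7035 with control siRNA (0.20 ± 0.06, adjusted p = 0.0456, limma). Dld, the dihydrolipoamide dehydrogenase that this complex shares with pyruvate dehydrogenase, had 5645, 5772 and 5733 against 4846, 4915 and 4851 (0.23 ± 0.05, adjusted p = 0.0154). The groups did not overlap for either gene. Ogdh, the first component, averaged 7041 ± 279 with SENP7 siRNA and 6220 ± 307 with control siRNA (SD, n = 3 each) and did not pass (0.18 ± 0.06, adjusted p = 0.0798), although it did without control replicate 3 (adjusted p = 0.0166) and with quantile normalization (adjusted p = 0.0446).

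Succinyl-CoA ligase, which makes a nucleoside triphosphate directly in the cycle, moved in both directions. Its ADP-dependent beta subunit Sucla2 (chromosome 14, 73525319 to 73596142, plus strand) had 4644, 4760 and 4631 normalized counts with SENP7 siRNA, against 3708, 3758 and 3430 with control siRNA. That was a rise of 0.37 ± 0.06 (adjusted p = 0.00302, limma), kept in every setting at the 0.05 threshold. The alpha subunit Suclg1, which pairs with either beta subunit, was the only cycle member that fell, with 2092, 2103 and 1918 against 2767, 2551 and 2256 (-0.31 ± 0.08, adjusted p = 0.0285). All SENP7 siRNA values of Suclg1 lay below all control values. The GDP-dependent beta subunit Suclg2 averaged 712.1 ± 33 with SENP7 siRNA and 670.7 ± 43 with control siRNA (SD, n = 3 each) and did not pass (0.09 ± 0.07, adjusted p = 0.445).

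At the end of the cycle Mdh2, the mitochondrial malate dehydrogenase that regenerates oxaloacetate, had 9410, 9620 and 9234 normalized counts with SENP7 siRNA, against 8301, 7687 and 7266 with control siRNA (0.28 ± 0.07, adjusted p = 0.0184, limma). Its groups were fully apart. Mdh1, the cytosolic enzyme of the malate-aspartate shuttle, averaged 5792 ± 278 and 5589 ± 189 (SENP7 siRNA and control siRNA, SD, n = 3 each) and did not pass (0.05 ± 0.06, adjusted p = 0.606). Fumarase (Fh1) averaged 2782 ± 126 and 2444 ± 223 in the same order and did not pass either (0.19 ± 0.08, adjusted p = 0.112), but did without control replicate 1 (adjusted p = 0.0486).

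Several calls of the cycle were lost when 1 library was left out. Idh2, Dld and Mdh2 lost theirs without SENP7 siRNA replicate 1, SENP7 siRNA replicate 2 or control replicate 2, with adjusted p between 0.0582 and 0.0886 (limma). Idh3a lost its call without any of these 3 (0.0726 to 0.127) or without control replicate 1 (0.0512). Dlst (0.0643 to 0.171) and Suclg1 (0.0702 to 0.108) kept theirs, among the fits with a library left out, only without control replicate 3.

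**Figure D2:**
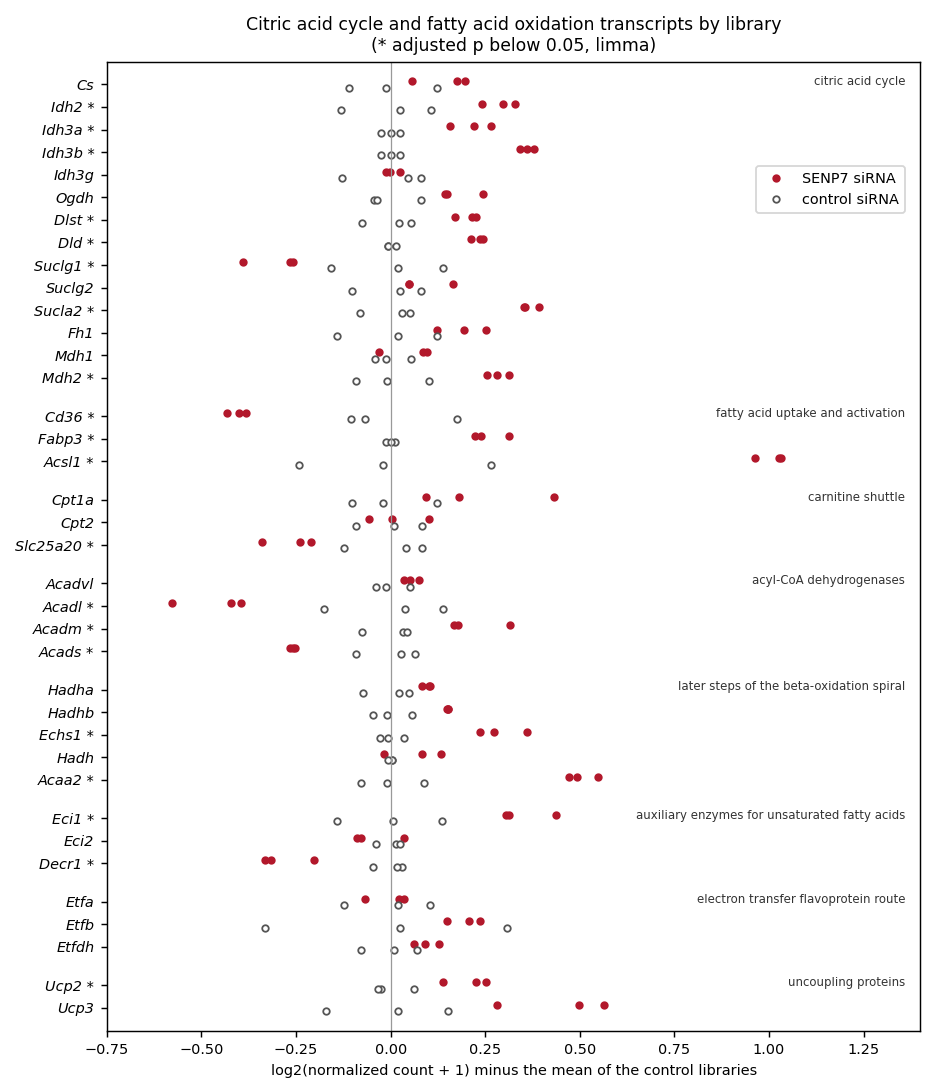
Each row is a tested member, grouped by role, and each point 1 library, placed by log2(normalized count + 1) minus the mean of the 3 control libraries (x axis); filled points are SENP7 siRNA and open points control siRNA, and an asterisk marks an adjusted p below 0.05. Idh3b, Sucla2, Acsl1 and Acaa2 lie wholly to the right of their controls, and Cd36, Acadl, Acads and Decr1 wholly to the left.

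Fatty acid uptake and activation held the largest rise among the members and also a fall. Acsl1, the long-chain acyl-CoA synthetase that activates fatty acids in muscle, fat and liver, had 1733, 1660 and 1740 normalized counts with SENP7 siRNA, against 718.6, 838.9 and 1022 with control siRNA. The ratio of means was 1.99 and the log2 fold change 1.01 ± 0.11 (adjusted p = 0.000532, limma), and the lowest SENP7 siRNA value was well above the highest control value. Over the 15 settings other than the stricter threshold its adjusted p ranged from 8.82e-14 to 0.00669. Cd36, a membrane protein that takes up long-chain fatty acids, had 1535, 1516 and 1483 with SENP7 siRNA and 1859, 2257 and 1908 with control siRNA (-0.40 ± 0.08, adjusted p = 0.00751). It lies on chromosome 5 from 17781690 to 17888801 on the minus strand. Fabp3, the cytosolic fatty acid binding protein of heart and skeletal muscle, had 854.4, 909.3 and 863.9 against 737.8, 725.4 and 731.5 (0.26 ± 0.06, adjusted p = 0.0168), with narrow spreads and no overlap. The call of Fabp3 was lost without SENP7 siRNA replicate 1 (adjusted p = 0.0598), SENP7 siRNA replicate 2 (0.0936) or control replicate 2 (0.0677). Exons of Zcchc17 and Gm10570 on the opposite strand cover 19.6% of the exon length of Fabp3; the strand setting of the counting is not given in the sources used here.

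Acsl1 and Cd36 are also abundant in fat cells, so adipocyte markers were read beside them. Of 8 adipocyte markers, Cfd had 0 reads in all 6 libraries, and Adipoq, Plin1, Cidec, Lep, Retn and Fabp4 had 0 to 3 reads per group. The remaining marker, lipoprotein lipase (Lpl), which muscle also makes, rose with 269.7, 307 and 230.2 normalized counts with SENP7 siRNA, against 96.76, 104.6 and 59.34 with control siRNA (1.65 ± 0.21, adjusted p = 0.00109, limma). The summed level of the 8 was 232.1 to 310.2 in SENP7 siRNA libraries and 61.28 to 106.8 in control libraries, nearly all of it Lpl.

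Acsl1 (chromosome 8, 46471037 to 46536051, plus strand) has 2 annotated start sites in RefSeq, 19929 bases apart, and the counts are per gene, so they do not say which start was used. Both windows are printed because Acsl1 changed most; the capitals mark the 50 transcribed bases. The upstream window spans chr8:46470787-46471086 and the downstream window chr8:46490716-46491015, both on the plus strand of GRCm38.p6.
Acsl1 upstream start: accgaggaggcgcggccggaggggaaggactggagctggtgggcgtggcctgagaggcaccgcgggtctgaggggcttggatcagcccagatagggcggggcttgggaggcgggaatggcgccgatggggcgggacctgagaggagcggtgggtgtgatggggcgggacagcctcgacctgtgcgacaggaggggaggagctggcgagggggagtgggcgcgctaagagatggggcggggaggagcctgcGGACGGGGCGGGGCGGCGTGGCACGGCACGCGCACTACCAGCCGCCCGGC
Acsl1 downstream start: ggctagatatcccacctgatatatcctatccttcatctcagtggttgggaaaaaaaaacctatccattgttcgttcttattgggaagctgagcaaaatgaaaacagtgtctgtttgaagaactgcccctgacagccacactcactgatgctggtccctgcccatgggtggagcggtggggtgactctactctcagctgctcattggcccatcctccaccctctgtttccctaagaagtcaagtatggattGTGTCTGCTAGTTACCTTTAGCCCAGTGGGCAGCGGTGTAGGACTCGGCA

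**Figure D3:**
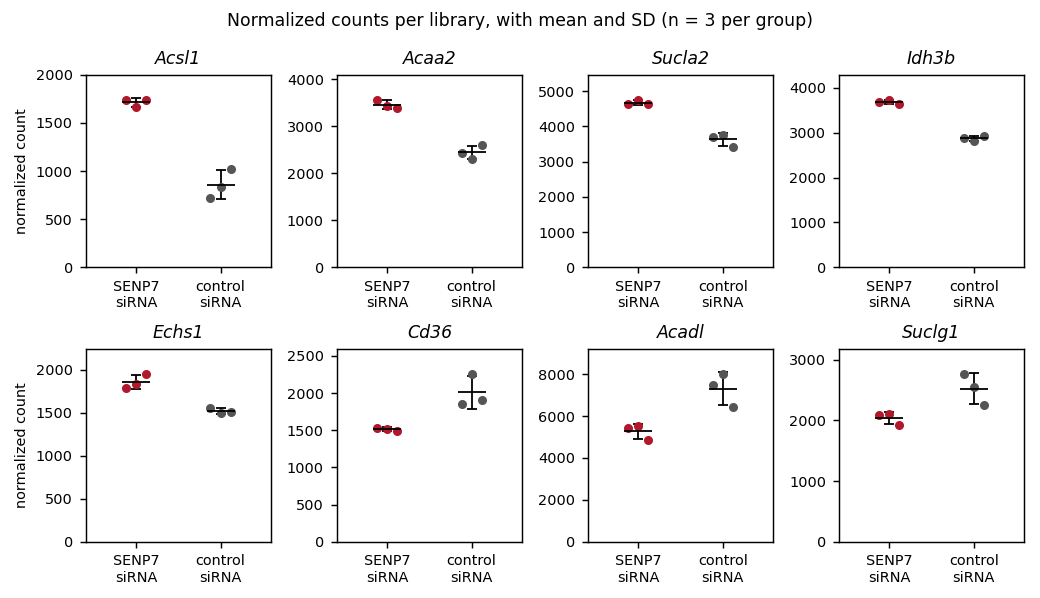
Normalized counts per library (points) with mean and SD (bars, n = 3 per group) for 8 members, SENP7 siRNA beside control siRNA, each y axis starting at 0. Acsl1, Acaa2, Sucla2, Idh3b and Echs1 are higher and Cd36, Acadl and Suclg1 lower in every SENP7 siRNA library than in any control library.

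The carnitine shuttle, which carries long-chain acyl groups across the mitochondrial membranes, had no member that rose. Cpt1a, the carnitine palmitoyltransferase 1 first known from liver, had 1105, 1175 and 1399 normalized counts with SENP7 siRNA and 965.6, 1021 and 1129 with control siRNA. SENP7 siRNA replicate 1 lay below control replicate 3, and the difference of 0.23 ± 0.10 did not pass (adjusted p = 0.124, limma), although it did without control replicate 3 (adjusted p = 0.0322). Cpt1b, the form typical of adult muscle, was barely detected, with 7.985, 4.279 and 12.31 normalized counts against 4.032, 6.675 and 12.65. That is 26 reads over the SENP7 siRNA libraries and 23 over the control libraries, too few for a difference to be detectable at this depth. The level of Cpt1b is itself uncertain, since 81.4% of its exon length is shared on the same strand with the overlapping gene Gm44502, which had 0 reads, and how reads in shared exons were counted is not given in the sources used here.

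Slc25a20, the translocase that exchanges acylcarnitine for carnitine across the inner membrane, had 661.9, 648.3 and 604.4 normalized counts with SENP7 siRNA, against 788.2, 811.1 and 702.3 with control siRNA (-0.26 ± 0.08, adjusted p = 0.0419, limma). All its SENP7 siRNA values were below its control values, but the call was near the threshold. It was lost with DESeq2 on the recovered reads (adjusted p = 0.0501), with quantile normalization (0.0506), without a filter on low values (0.0566), and without any library except control replicate 3 (0.0922 to 0.159). Cpt2, which returns the acyl group to CoA in the matrix, averaged 896.6 ± 50.4 with SENP7 siRNA and 886.9 ± 53.2 with control siRNA (SD, n = 3 each), a log2 difference of 0.02 ± 0.07 (adjusted p = 0.901) that was -0.03 without SENP7 siRNA replicate 3 and -0.03 without control replicate 3.

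The acyl-CoA dehydrogenases, which start each turn of the spiral on chains of different length, moved apart. Acadl, the long-chain enzyme, fell most among the members, with 5436, 5539 and 4875 normalized counts with SENP7 siRNA and 7480, 8010 and 6449 with control siRNA (-0.47 ± 0.09, adjusted p = 0.00754, limma). Acads, the short-chain enzyme, fell with 2070, 2060 and 2051 against 2578, 2514 and 2313 (-0.26 ± 0.06, adjusted p = 0.0153). Both had every SENP7 siRNA value below every control value, and control replicate 3 was the lowest control. Acadm, the medium-chain enzyme, rose with 2664, 2681 and 2952 with SENP7 siRNA, against 2426, 2442 and 2248 with control siRNA (0.22 ± 0.06, adjusted p = 0.0403). Acadvl, the very-long-chain enzyme of the inner membrane, averaged 3937 ± 55.1 with SENP7 siRNA and 3794 ± 121 with control siRNA (SD, n = 3 each) and did not pass (0.05 ± 0.05, adjusted p = 0.529). Dvl2 exons on the opposite strand cover 42.9% of the exon length of Acadvl.

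Acadl kept its call in every setting at the 0.05 threshold (adjusted p up to 0.0415). Acads lost its call without SENP7 siRNA replicate 1 (adjusted p = 0.0656), SENP7 siRNA replicate 2 (0.0685) or control replicate 2 (0.0714). Acadm lost its call without a filter on low values (0.0523) and without any library except control replicate 3 (0.0566 to 0.121).

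Windows of Acadl, the largest fall, and Acadm, a rise in the same enzyme family, are printed side by side. The Acadl window (gene on chromosome 1 from 66830839 to 66863277) spans chr1:66863260-66863559 on the minus strand. Its capitals are the 50 bases from the RefSeq start site, 66863309, onward. That start lies outside the gene span given, and so do some of these bases. The Acadm window (gene on chromosome 3 from 153922357 to 153944632) spans chr3:153944594-153944893 on the minus strand, with capitals on a match to the NRF1 core motif GCATGCGC that begins 158 bases before the start. Both are from RefSeq on GRCm38.p6.
Acadl: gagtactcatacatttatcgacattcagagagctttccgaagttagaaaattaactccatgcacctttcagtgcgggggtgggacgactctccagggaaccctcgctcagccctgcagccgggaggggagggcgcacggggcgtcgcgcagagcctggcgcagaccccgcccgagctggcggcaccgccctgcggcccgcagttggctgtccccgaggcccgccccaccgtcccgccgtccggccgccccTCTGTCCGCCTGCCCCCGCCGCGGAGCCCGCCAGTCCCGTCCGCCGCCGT
Acadm: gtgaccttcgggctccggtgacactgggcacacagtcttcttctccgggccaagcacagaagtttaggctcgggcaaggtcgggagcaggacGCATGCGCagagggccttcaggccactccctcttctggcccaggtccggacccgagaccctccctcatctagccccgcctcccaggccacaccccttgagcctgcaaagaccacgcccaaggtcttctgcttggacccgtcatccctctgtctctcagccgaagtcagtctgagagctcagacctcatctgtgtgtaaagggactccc

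In the later steps of the spiral all 5 members lay above 0, as did 49.5% of all tested genes. Of the 5, 2 rose (40%, beside 10.2% of all tested genes) and 3 did not pass. Echs1, the short-chain enoyl-CoA hydratase (chromosome 7, 140105710 to 140116476, minus strand), had 1790, 1836 and 1949 normalized counts with SENP7 siRNA and 1557, 1490 and 1512 with control siRNA (0.29 ± 0.06, adjusted p = 0.00855, limma). Acaa2, the mitochondrial 3-ketoacyl-CoA thiolase that releases acetyl-CoA, had 3566, 3436 and 3383 against 2426, 2312 and 2592 (0.50 ± 0.06, adjusted p = 0.000807). Both were higher in all SENP7 siRNA cultures than in any control culture, and both calls held in every setting at the 0.05 threshold. Hadh, the 3-hydroxyacyl-CoA dehydrogenase of shorter chains, averaged 1474 ± 77.9 with SENP7 siRNA and 1407 ± 6.73 with control siRNA (SD, n = 3 each) and did not pass (0.07 ± 0.06, adjusted p = 0.474).

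Hadha and Hadhb encode the alpha and beta subunits of the trifunctional protein, which carries out the last 3 steps on long chains. Hadha had 7071, 7063 and 6977 normalized counts with SENP7 siRNA and 6815, 6689 and 6264 with control siRNA (0.10 ± 0.06, adjusted p = 0.291, limma; 95% interval -0.04 to 0.23). Hadhb averaged 1774 ± 1.06 and 1598 ± 57.5 (SENP7 siRNA and control siRNA, SD, n = 3 each), a difference of 0.15 ± 0.05 on the log2 scale (adjusted p = 0.0838; 95% interval 0.03 to 0.28). Neither passed the test, although their groups did not overlap.

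Both genes are transcribed away from each other on chromosome 5, with start sites 273 bases apart in RefSeq. Their windows share 228 bases, which are in capitals in the Hadhb window printed here to show that overlap (chr5:30155003-30155302, plus strand, GRCm38.p6).
Hadhb: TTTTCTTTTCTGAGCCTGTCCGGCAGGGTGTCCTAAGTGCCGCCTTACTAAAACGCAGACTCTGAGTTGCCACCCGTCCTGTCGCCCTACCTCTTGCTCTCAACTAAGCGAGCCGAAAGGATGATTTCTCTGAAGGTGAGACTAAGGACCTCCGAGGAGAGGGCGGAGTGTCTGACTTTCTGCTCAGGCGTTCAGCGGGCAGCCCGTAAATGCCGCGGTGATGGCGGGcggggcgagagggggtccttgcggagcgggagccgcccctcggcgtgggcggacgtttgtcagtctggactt

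Auxiliary enzymes let chains with double bonds pass through the spiral. Eci1, the mitochondrial enoyl-CoA isomerase, had 879.3, 965 and 884.8 normalized counts with SENP7 siRNA and 783.2, 715.4 and 644.9 with control siRNA (0.35 ± 0.08, adjusted p = 0.0185, limma). Decr1, the 2,4-dienoyl-CoA reductase, went the other way with 1021, 933.9 and 943.5 against 1201, 1189 and 1139 (-0.28 ± 0.06, adjusted p = 0.0131). Neither gene had overlapping groups. Eci2, an isomerase found in peroxisomes and mitochondria, averaged 1044 ± 49.7 with SENP7 siRNA and 1075 ± 24.7 with control siRNA (SD, n = 3 each) and did not pass (-0.04 ± 0.06, adjusted p = 0.655). Eci1 lost its call without SENP7 siRNA replicate 1 (adjusted p = 0.0539), SENP7 siRNA replicate 2 (0.0862) or control replicate 2 (0.0713), and Decr1 without SENP7 siRNA replicate 2 (0.0712) or control replicate 2 (0.0603).

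Electrons from the acyl-CoA dehydrogenases pass through the electron transfer flavoprotein (Etfa, Etfb) and its dehydrogenase (Etfdh) to ubiquinone, and none of these 3 transcripts passed the test. Etfa averaged 2572 ± 100 normalized counts with SENP7 siRNA and 2583 ± 203 with control siRNA (SD, n = 3 each; adjusted p = 0.977, limma). Its fitted difference was close to 0 and took the opposite sign under TMM scaling (0.0036), quantile normalization (0.02), and without SENP7 siRNA replicate 3 (0.03), control replicate 1 (0.05) or control replicate 2 (0.01). Etfdh averaged 1943 ± 44.7 with SENP7 siRNA and 1823 ± 95 with control siRNA (0.09 ± 0.06, adjusted p = 0.308). Etfb averaged 243.4 ± 7.47 with SENP7 siRNA and 215.7 ± 47.4 with control siRNA (0.20 ± 0.15, adjusted p = 0.4), with control values running from 168.3 in control replicate 3 to 263.1 in control replicate 1. The Etfb count is uncertain, because 58.2% of its exon length is shared on the same strand with Gm45233 and Mir7051.

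Of the uncoupling proteins, carriers of the inner membrane, Ucp2, which many cell types express, had 4650, 4733 and 4376 normalized counts with SENP7 siRNA and 4148, 3905 and 3886 with control siRNA (0.20 ± 0.06, adjusted p = 0.0399, limma). Ucp3, the form enriched in skeletal muscle, had 72.75, 69.54 and 59.68 against 54.43, 43.39 and 49.61. The groups were apart in both genes, but the larger difference of Ucp3, 0.45 ± 0.17, did not pass (adjusted p = 0.09; 95% interval 0.07 to 0.82). Ucp2 lost its call without SENP7 siRNA replicate 1 (adjusted p = 0.15), SENP7 siRNA replicate 2 (0.167), control replicate 2 (0.14) or a filter on low values (0.0578).

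Partner transcripts were also compared as log2 ratios within each library, with an exact permutation test (two-sided) whose smallest possible p with 3 against 3 libraries is 0.1. The Sucla2 to Suclg2 ratio was 2.71 ± 0.08 with SENP7 siRNA and 2.44 ± 0.04 with control siRNA (SD, n = 3 each). The Mdh2 to Mdh1 ratio was 0.70 ± 0.05 and 0.47 ± 0.07, and the Idh3b to Idh3a ratio 0.16 ± 0.05 and 0.02 ± 0.04, in the same order of groups. For Ucp3 to Ucp2 the SENP7 siRNA mean was -6.07 ± 0.10 and the control mean -6.32 ± 0.13. For Hadha to Hadhb they were 1.99 ± 0.01 and 2.04 ± 0.03. In these 5 ratios the groups did not overlap, which gave that smallest exact p of 0.1 and 0.12 after Benjamini-Hochberg adjustment over 6 ratios, so none could pass. The Cpt1b to Cpt1a ratio, at -7.15 ± 0.57 and -7.01 ± 0.61 (SENP7 siRNA and control siRNA), overlapped fully (exact permutation p = 0.8). Its difference of -0.15 turned to 0.18 without SENP7 siRNA replicate 2 and 0.17 without control replicate 3.

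Levels between genes were compared per kb of the gene length listed in the table. Acadl led the control cultures with 3647 ± 396 normalized counts per kb, ahead of Mdh2 with 2176 ± 146 and Mdh1 with 2100 ± 71.1, which lay within their spread of each other (SD, n = 3). In the SENP7 siRNA cultures Mdh2 (2645 ± 54.2) and Acadl (2635 ± 178) were level within their spread, followed by Acaa2 (2283 ± 62.1) and Mdh1 (2176 ± 104), which did not differ beyond their spread either. At the other end were Ucp3, with 21.5 ± 2.17 and 15.7 ± 1.77, and Cpt1b, with 2.43 ± 1.19 and 2.31 ± 1.31 (SENP7 siRNA and control siRNA). Acsl1, in spite of its rise, stayed among the lower members at 163 ± 4.21 with SENP7 siRNA and 82 ± 14.6 with control siRNA. Among the forms of carnitine palmitoyltransferase 1, Cpt1a stood at 160 ± 20.1 and 136 ± 10.9 per kb in the same order, far above Cpt1b, within the counting limit given for that gene.

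**Figure D4:**
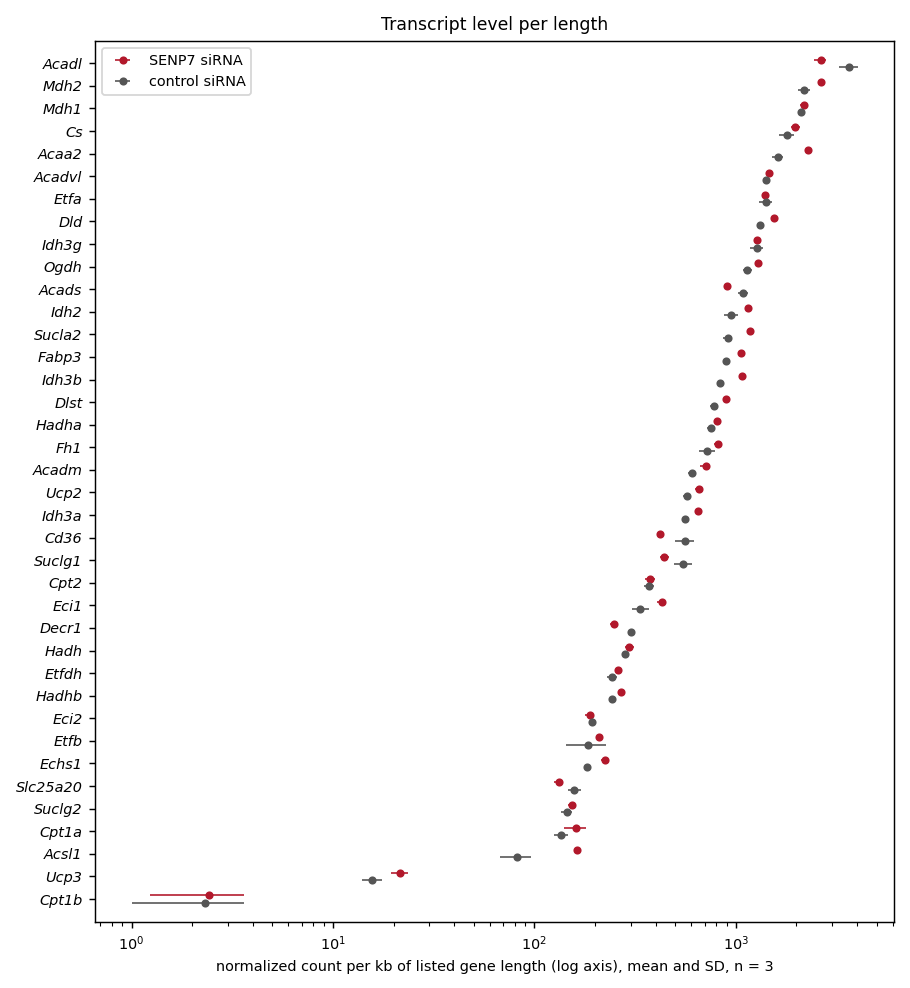
Normalized counts per kb of listed gene length (log x axis) of all 38 members, ordered by the control mean, with points for the mean and bars for the SD of 3 libraries per group. Acadl is at the top in control siRNA with 3647 per kb, and Cpt1b at the bottom with about 2 per kb in both groups.

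Promoter windows of 300 bases were found in the RefSeq table for 34 of the 38 members, 40 windows in all, and were searched on both strands beside all 32851 windows. The 4 members without a window were not searched: Acaa2 and Idh3a, which rose, Decr1, which fell, and Cpt1b, which was not tested. The NRF1 core GCATGCGC was in 12.5% of the member windows and 2.71% of all windows. Its members were Acadm, which rose, and Etfa, Etfdh and Ogdh, which did not pass. The 2 windows of Ogdh overlap each other, and so do the matches on the 2 strands of the Etfdh window. The ETS motif CCGGAAG was in 12.5% of the member windows and 8.86% of all windows. Of its 5 genes Dlst and Idh3b rose, Slc25a20 fell, and Cpt2 and Idh3g did not pass. The estrogen-related receptor motif TCAAGGTCA was in 0 of the 40 member windows and 0.423% of all windows, and the direct repeat 1 of PPAR and RXR in 0 of 40 and 0.0396%. These counts describe letters within the windows and were not tested.

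A further 105 genes around these pathways were read from the same fit, and 97 of them were tested. Of these, 29 rose (29.9%, beside 10.2% of all tested genes) and 12 fell (12.4%, near the 10.7% of all tested genes), and the median log2 fold change was 0.12. The 29 include Esrrg, which would not have met the filter on low values without its SENP7 siRNA libraries. Without SENP7 siRNA replicate 1 there were 16 that rose and 8 that fell, among 1660 genes called in all. Without SENP7 siRNA replicate 2 there were 15 and 6 among 1619, and without control replicate 2 there were 18 and 6 among 1633.

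Among 29 genes of pyruvate entry and the rest of the cycle, 13 rose (44.8%, beside 10.2% of all tested genes) and 4 fell (13.8%, beside 10.7%), with a median of 0.21. Slc25a10, the mitochondrial dicarboxylate carrier, had the smallest adjusted p of this list, with 989.3, 997.1 and 951.1 normalized counts with SENP7 siRNA and 642, 650.8 and 632.3 with control siRNA (0.61 ± 0.06, adjusted p = 0.000292, limma). Sdha, the flavoprotein of succinate dehydrogenase, rose by 0.35 ± 0.06 (adjusted p = 0.00328). Of the enzymes that set the activity of pyruvate dehydrogenase, the inhibiting kinase Pdk2 rose by 0.52 ± 0.08 (adjusted p = 0.00217) and the activating phosphatase Pdp1 rose by 0.40 ± 0.07 (adjusted p = 0.00335). Pdk4, a kinase that rises in fasted muscle, had 1013, 952.1 and 1221 with SENP7 siRNA and 1338, 1338 and 1554 with control siRNA, with no overlap (-0.41 ± 0.10, adjusted p = 0.0208). The call of Pdk4 was lost without SENP7 siRNA replicate 1 (0.0822), SENP7 siRNA replicate 2 (0.0853) or control replicate 2 (0.0603).

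Among 31 tested genes of other fatty acid steps, 7 rose (22.6%, beside 10.2% of all tested genes) and 4 fell (12.9%, beside 10.7%), with a median of 0.13. The acyl-CoA synthetases Acsl5 (-0.33 ± 0.06, adjusted p = 0.00552, limma) and Acsl6 (-0.84 ± 0.13, adjusted p = 0.00272) fell, opposite to Acsl1. Acsl6 had 1514, 1447 and 1257 normalized counts with SENP7 siRNA and 2649, 2971 and 2027 with control siRNA. Pccb, the beta subunit of the propionyl-CoA carboxylase that handles odd-chain ends, rose by 0.51 ± 0.07 (adjusted p = 0.00135), and Crat, the mitochondrial carnitine acetyltransferase, by 0.35 ± 0.06 (adjusted p = 0.00505). Of 15 tested peroxisomal and ketone genes, 4 rose (26.7%) and 2 fell (13.3%), beside the same shares of all tested genes, with a median of 0.12. Acat1, the thiolase of ketone use, rose by 0.40 ± 0.08 (adjusted p = 0.0105), which without SENP7 siRNA replicate 2 was no longer called (0.053). Abcd2, a transporter of fatty acids into peroxisomes, rose by 1.09 ± 0.26 (adjusted p = 0.0189), and Pex11a, a peroxisome division factor, fell by 0.54 on the log2 scale (SE 0.13, adjusted p = 0.0179). The call of Abcd2 was lost without SENP7 siRNA replicate 1, SENP7 siRNA replicate 3, control replicate 1 or control replicate 2 (0.0598 to 0.0868). Pex11a lost its call without SENP7 siRNA replicate 1, SENP7 siRNA replicate 2, control replicate 1 or control replicate 2 (0.0503 to 0.0791).

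Of 22 tested regulators of oxidation genes, 5 rose (22.7%, beside 10.2% of all tested genes) and 2 fell (9.09%, below the 10.7% of all tested genes), with a median of 0.06. The 5 include Esrrg, which would not have met the filter on low values without its SENP7 siRNA libraries. The list holds transcription factors and coactivators, and also corepressors, the kinase subunits Prkaa1 and Prkaa2 and the deacetylases Sirt1 and Sirt3. Ppargc1a, the coactivator PGC-1alpha that promotes mitochondrial gene expression in muscle, had 223.6, 203.3 and 300.3 normalized counts with SENP7 siRNA, against 55.44, 80.1 and 118.7 with control siRNA (1.55 ± 0.26, adjusted p = 0.00377, limma). The groups were far apart. Its relative Ppargc1b rose by 0.57 ± 0.10 (adjusted p = 0.00396), the corepressor Nrip1 by 0.51 ± 0.10 (adjusted p = 0.0076) and the PPAR partner Rxra by 0.29 ± 0.06 (adjusted p = 0.00871). Ppard, the PPAR form prominent in muscle (-0.13 ± 0.06, adjusted p = 0.166), and Esrra, an estrogen-related receptor (0.05 ± 0.05, adjusted p = 0.523), did not pass. Ppara was too low to test, with 34 reads over the SENP7 siRNA libraries and 21 over the control libraries.

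The authors' deposited table, made with DESeq2, gave 13 members higher and 5 lower at an adjusted p below 0.05, where 9.26% of its 27493 genes with a value passed in both directions together. All 18 were called here too. Acadm (adjusted p = 0.0607 in the authors' deposited table) and Slc25a20 (0.0877 there) were called here but not in that table. For Acsl1 the authors' deposited table gave a log2 fold change of 0.93 with a standard error of 0.12, and for Acadl -0.45 with 0.09.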

How the data were processed

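The submitters' processing notes name the demultiplexer bcl2fastq, the trimmer Trim Galore 0.6.4, the aligner STAR 2.6.1d, the counter featureCounts 1.6.4, the package DESeq2 and the genome build GRCm38.p6. The sources used here do not give the strand setting, the handling of overlapping genes, the annotation release or which DESeq2 version was used. The deposited signal columns hold the authors' read counts divided by 1 size factor per library, as the values themselves show: 100% of values up to 1000 reads were whole multiples of a step, within 0.1 read, in each library. The deposited table also gives, per the file headers, a log2 fold change, its standard error, a Wald score, a p-value with its adjusted value and a gene length. The design foresaw edgeR for raw counts; because the columns are normalized, limma 3.58.1 (R 4.3.3; trend and robust empirical Bayes, group as sole term) was fitted to log2(normalized count + 1) for genes with at least 10 in at least 3 libraries, which understates changes of low genes. edgeR 4.0.16 on the recovered reads called 3035 genes, against 3062 by limma.

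Groups were taken from the labels. Intervals are 95% and not adjusted for multiple tests. The members and gene lists were chosen with earlier results of these data known. Genes named outside the members were, per list, up to 4 past the threshold with the smallest adjusted p and a mean of at least 50, plus Sdha, Pdk4, Ppara, Ppard, Esrra and Ppargc1a; single results of a few genes of these lists are not reported here, and members past the threshold were given in every library. Exon overlaps and gene spans came from the table's own coordinates, and promoter windows from RefSeq on GRCm38.p6, matched by symbol. A RefSeq start site therefore need not be the end of the gene span given. The procedure was run on simulated independent libraries with changes larger than those of most members. That run does not cover changes as small as most seen here, or libraries that stand apart or are unusually alike. Other settings tried were a replicate block, edgeR, DESeq2 1.42.0, other scalings, filters and pseudocounts (0.5 and 5), a threshold of 0.01 and each library left out. The Mmut gene of the fatty acid list is listed in the table under its older symbol Mut. Depth sets precision: a normalized count of 1 is about 1 read, and Cpt1b rests on 26 and 23 reads (SENP7 siRNA and control siRNA).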

Additional observations from a re-analysis of the deposited data

How the results depend on the processing

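Direction was kept by all 20 called members in all settings. Of 592 values of members under alternatives, 511 stayed on their side of the threshold, 65 lost and 7 gained a call, and 9 changed sign, all of these in members that had not passed. Idh3g was -0.01 without SENP7 siRNA replicate 3 and ranged from -0.06 to 0.04 with 1 library left out, and Cpt2 ranged from -0.03 to 0.06. Etfa was 0.0036 with TMM scaling, 0.02 with quantile normalization and -0.07 to 0.05 with 1 library left out. The Cpt1b to Cpt1a ratio differed by -0.44 to 0.18 with 1 library left out. With a threshold of 0.01, 5 members rose and 2 fell, 12 of the other pathway genes rose and 5 fell, and 1398 genes were called in all. Leaving out 1 library at a time gave 5 to 16 members that rose, 2 to 6 that fell, 15 to 34 other pathway genes that rose, 6 to 12 that fell and 1619 to 4702 genes in all; the cause was not tested. Scaling, filter, pseudocount, edgeR and DESeq2 moved each count by less than 1.5 times.

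Deviations from the group means of same-numbered libraries correlated at 0.13, 0.0624 and 0.251 (replicates 1, 2 and 3). The value for replicate 3 was the highest of all pairs, while SENP7 siRNA replicate 2 correlated best with control replicate 1 (0.141). Whether the replicate numbers mark pairs was not settled by these values, and the main test treated the libraries as unpaired. With the replicate number as a block, 17 members rose and 6 fell, with 37 and 12 of the other pathway genes and 4175 genes in all; Ogdh (adjusted p = 0.0377), Fh1 (0.0347) and Cpt1a (0.0143) passed under that block (limma).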

Other observations

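Further genes of the lists around the members are given here because their values stood out once they were seen. Esrrg, an estrogen-related receptor of oxidative muscle, had 52.35, 54.56 and 42.63 normalized counts with SENP7 siRNA and 7.055, 3.338 and 17.51 with control siRNA (log2 fold change 2.55 ± 0.46, adjusted p = 0.00549, limma). Its relative Esrrb went the opposite way, with 15.97, 20.33 and 32.21 against 65.52, 77.88 and 53.5 (-1.52 ± 0.27, adjusted p = 0.00519). Neither gene had overlapping groups. Both calls held in the 14 alternative settings at the 0.05 threshold in which they were tested, and neither gene was tested where a mean of at least 50 was required. Esrrg would not have met the filter on low values without its SENP7 siRNA libraries, and its control libraries held 28 reads in all. Its call therefore depends on the group where it is high, and its log2 fold change rests on control values near the floor.

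Pdk1, a pyruvate dehydrogenase kinase that low oxygen induces, had 2329, 2167 and 2252 normalized counts with SENP7 siRNA and 4705, 5417 and 2943 with control siRNA (-0.91 ± 0.19, adjusted p = 0.00949, limma). Control replicate 3 was far below the other controls, and the call was lost without a filter on low values (0.131) and under a replicate block (0.0522). Acacb, the acetyl-CoA carboxylase whose product malonyl-CoA inhibits carnitine palmitoyltransferase 1, had 71.87, 79.17 and 116.5 with SENP7 siRNA and 40.32, 43.39 and 51.55 with control siRNA (0.94 ± 0.21, adjusted p = 0.0135), not called without control replicate 2 (0.0594). Mlycd, which degrades malonyl-CoA, rose as well by 0.36 ± 0.08 (adjusted p = 0.0149), not called without SENP7 siRNA replicate 1 (0.0744) or replicate 2 (0.0695).

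Of the other marker lists, the 6 genes listed for proliferating myoblasts summed to 5860 to 7132 normalized counts in SENP7 siRNA libraries and 6126 to 8069 in control libraries. Pax7 was the 1 riser (0.48 ± 0.11, adjusted p = 0.0159, limma) and was not called without control replicate 2 (0.0736). The cell cycle genes Mki67, Top2a, Ccnb1 and Cdk1 and the myogenic factor Myf5 did not pass, with log2 fold changes from -0.31 (Ccnb1) to 0.03 (Mki67), so the list did not move together. The 5 osteoblast genes summed to 99.47 to 122.4 and 106.8 to 152.2, with Ibsp at 0 reads. The 5 macrophage genes summed to 43.86 to 57.79 and 54.43 to 63.42, with Adgre1 at 0 reads. The 4 endothelial genes summed to 20.84 to 25.68 and 10.01 to 17.51, where the angiopoietin receptor Tek rose (1.24 ± 0.30, adjusted p = 0.0202), a call lost without SENP7 siRNA replicate 1 (0.0668), SENP7 siRNA replicate 2 (0.0945) or control replicate 2 (0.0677) and with DESeq2 (0.0978). Tek met the filter on low values only through its SENP7 siRNA values (13.31, 17.12 and 12.31, against 6.048, 4.45 and 5.836 with control siRNA). It was thus tested only because it was high in that group, and the call carries no weight. The other endothelial genes were too low to test. In these last 3 lists the first range is SENP7 siRNA and the second control siRNA, and their part in the members' results was not tested.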
